A study of Mus musculus with 24 samples.

Results

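The chromatin described here surrounds 39 mouse genes of the keratinocyte cytokine and inflammation programme. They comprise cytokines, chemokines, receptors, the NF-kB and STAT regulators that act downstream of them, and the effectors Ptgs2 and Icam1. A region was counted when a peak of an assay for transposase-accessible chromatin (ATAC-seq) overlapped the body of one of these genes or the 20 kb on either side of it, with protein-coding genes taken from GENCODE on the GRCm38 build. When peaks overlapping by at least 1 bp were merged over all 12 peak lists, 408 of 134385 regions lay in these windows. Merging the 5 skin lists alone gave 342 of 98240 regions, and merging the 7 culture lists alone gave 285 of 97078.

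The study followed epidermal stem cells (EpdSCs) of mice in which doxycycline (DOX) switched on a Sox9 transgene, and asked how this transcription factor of the hair follicle changes chromatin. All 24 samples were labelled as male mice of the CD1 strain or as keratinocytes from such skin, and formed 12 groups of 2. Skin cells carried K14rtTA, in which the keratin 14 promoter drives the DOX-dependent activator in basal keratinocytes, and TRE-myc-Sox9. From back skin, cells high for CD49f and Ly6A and negative for CD34, CD31, CD45, CD117 and CD140a were sorted before DOX (D0, postnatal day 21) and at week 1 (W1, day 28), week 2 (W2, day 35), week 6 (W6, day 63) and week 12 (W12). Per the study's methods, a skin replicate pooled several mice. The W12 cells came from newborn skin grafted onto immunocompromised Nude hosts that was given DOX only after healing, so that week and tissue source cannot be told apart for that list. All culture groups shared K14rtTA. The uninduced control (noDOX) and WT-SOX9 were labelled with TRE-myc-Sox9, ΔHMG-SOX9 with a SOX9 lacking its DNA-binding HMG domain, and ΔTA-SOX9 with a SOX9 lacking its transactivation domain. AFOS carried TRE-FLAG-AFOS, a FOS mutant that blocks AP1 from binding DNA, SOX9+AFOS carried TRE-myc-Sox9 and TRE-FLAG-AFOS, and SOX9+ARID1a carried TRE-myc-Sox9 and TRE-ARID1a, a DNA-binding component of SWI/SNF remodelling complexes. The 6 induced groups received DOX at 1 µg per ml, for 3 days where the labels gave a time, and per the methods the SOX9 variants, AFOS and ARID1a constructs were delivered by lentivirus. Only the uninduced cells of the WT-SOX9 label served as control for all 6 arms.

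Keratinocytes are the barrier's first source of alarm signals. IL-1 and TNF receptors signal through NF-kB and AP1, which switch on chemokines and further cytokines. The IL-6 and IL-20 families signal through JAK kinases and STAT3, and SOCS3 and IκBα close these loops by feedback. Chemokines made by the epidermis recruit neutrophils, monocytes and T cells, and CSF1 and IL-34 sustain macrophages and Langerhans cells.

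Central 200-bp sequences are printed below for 1 high-scoring region of each pattern, because these regions carry the comparisons that follow. Peak scores are the authors' normalized MACS2 scores, with 3 as the lowest value kept, and a region without a listed peak was below that threshold, which does not show that it was closed. Sequences are on the plus strand of GRCm38. Capitals mark matches to a searched motif on either strand. AP1 was searched as TGACTCA or TGAGTCA, and GATA as AGATAA or TTATCT. NF-kB was searched as GGGANNTTCC or GGAANNTCCC, and STAT as TTCNNNGAA. A SOX match was ACAATGG with its complement CCATTGT, or ACAATAG with CTATTGT. Interferon-response matches were GAAANNGAAA or TTTCNNTTTC. Motifs were searched separately, so that matches to different motifs may overlap. They come from an Il18 intron gained at W2 and retained (chr9:50570203-50570402), an Nfkb1 intron gained late (chr3:135623526-135623725), a site upstream of Ptgs2 lost by W2 (chr1:150089164-150089363), an Nfkb1 intron opened by WT-SOX9 (chr3:135594344-135594543), the Il1a promoter closed by WT-SOX9 (chr2:129309921-129310120), a site upstream of Tnfrsf1b found only in skin (chr4:145254499-145254698), a site upstream of Il1a found only in culture (chr2:129316014-129316213), and the strongest static region, which lies in the Il1a window but at the Ckap2l promoter (chr2:129296793-129296992).
Il18 intron: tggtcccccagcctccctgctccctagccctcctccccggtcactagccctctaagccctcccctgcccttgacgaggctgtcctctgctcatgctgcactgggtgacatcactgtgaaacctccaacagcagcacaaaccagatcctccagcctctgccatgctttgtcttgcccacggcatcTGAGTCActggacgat
Nfkb1 intron gained late: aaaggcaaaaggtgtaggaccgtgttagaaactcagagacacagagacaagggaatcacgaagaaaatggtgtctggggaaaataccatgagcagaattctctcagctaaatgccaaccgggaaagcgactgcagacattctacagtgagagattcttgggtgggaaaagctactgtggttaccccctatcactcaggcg
Ptgs2 upstream: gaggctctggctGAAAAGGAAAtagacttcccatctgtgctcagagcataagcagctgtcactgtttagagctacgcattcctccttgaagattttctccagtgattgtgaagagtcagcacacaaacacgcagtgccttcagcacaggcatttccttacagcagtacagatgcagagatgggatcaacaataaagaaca
Nfkb1 intron opened in culture: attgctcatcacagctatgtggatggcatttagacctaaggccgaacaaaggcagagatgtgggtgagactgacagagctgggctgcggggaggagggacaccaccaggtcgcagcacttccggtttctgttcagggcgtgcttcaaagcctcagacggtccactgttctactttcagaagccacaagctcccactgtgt
Il1a promoter: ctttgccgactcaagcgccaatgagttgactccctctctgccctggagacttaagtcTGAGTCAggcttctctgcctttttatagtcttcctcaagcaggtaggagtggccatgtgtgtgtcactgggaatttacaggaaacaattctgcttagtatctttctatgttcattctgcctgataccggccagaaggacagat
Tnfrsf1b upstream: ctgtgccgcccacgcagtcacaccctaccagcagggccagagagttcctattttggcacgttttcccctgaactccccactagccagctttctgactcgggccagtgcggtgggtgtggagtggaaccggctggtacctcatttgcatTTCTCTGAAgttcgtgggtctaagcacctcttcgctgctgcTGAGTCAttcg
Il1a upstream: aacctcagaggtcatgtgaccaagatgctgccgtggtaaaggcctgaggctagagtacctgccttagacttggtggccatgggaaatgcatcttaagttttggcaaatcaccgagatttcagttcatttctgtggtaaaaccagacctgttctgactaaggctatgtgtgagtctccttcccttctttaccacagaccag
Ckap2l promoter: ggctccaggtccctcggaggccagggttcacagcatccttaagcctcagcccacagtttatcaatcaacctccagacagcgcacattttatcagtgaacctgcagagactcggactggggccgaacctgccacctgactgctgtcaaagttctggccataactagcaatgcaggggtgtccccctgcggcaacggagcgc

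The Il18 intron and the Il1a promoter each held TGAGTCA, and the Tnfrsf1b site held both TGAGTCA and the STAT match TTCTCTGAA. The Ptgs2 site held the interferon-response match GAAAAGGAAA. No searched motif lay in the other 4 central windows, which says only that these letters are not there.

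The lists held 49458 to 75956 peaks, of which 0.281 to 0.405% lay in the cytokine windows, and read depth is unknown. The 4 promoters of basal keratinocyte markers (Krt5, Krt14, Trp63, Itga6) had a peak in all 12 lists. Promoters of Ptprc, Cd3e, Cd207 and Itgam, which mark leukocytes and Langerhans cells, had none in any list, whereas Csf1r had none in skin and a score of 5.96 to 63.5 in culture. Of the other markers, 1 to 2 of 3 fibroblast promoters, 0 to 2 of 3 endothelial, 0 to 1 of 3 melanocyte and 1 to 3 of 3 hair follicle stem cell promoters had a peak per list, and their part in the results was not tested. As a check on the labels, a peak over the last exon of Sox9 was present at D0, before DOX (score 13.5), and at W2 (15.1), W6 (9.22) and W12 (8.84), but not at W1. It therefore does not separate induced from uninduced skin, and W1 below means the list labelled W1. A peak of 3425 bp covered that exon in WT-SOX9 (score 21.2) and one of 2902 bp did so in ΔHMG-SOX9 (71.9), against 3.71 in noDOX and SOX9+ARID1a, 5.11 in SOX9+AFOS and none in ΔTA-SOX9 and AFOS. Peaks confined to single Arid1a exons numbered 12 in SOX9+ARID1a, but also 8 in AFOS and 7 in SOX9+AFOS, against 0 or 1 in the other 9 lists. AFOS, SOX9+AFOS and SOX9+ARID1a below likewise mean the lists with those labels.

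Of the 408 regions, 185 were intergenic, 171 intronic, 22 in untranslated sequence, 15 in coding exons and 15 in exons of noncoding transcripts. The nearest transcription start site (TSS) belonged to a member for 318 regions (77.9%), so the remainder may serve neighbouring genes. In skin, member regions lay closer to a TSS than all regions, with a median distance of 7276 bp against 19373 bp, and 20.2% against 16.2% were within 1 kb of one. Their median GC content was 50.5% against 50%. Per gene, the number ranged from 3 regions at Il6 to 32 at Nfkb1. Il20 and Il24 shared 5 regions and Cxcl1 and Cxcl2 shared 5, and each was counted once in the totals. At the window edge, a region 19944 bp from Il20 (score 29.4 at D0), which is the Il24 promoter, was just inside and one 20223 bp from Cxcl10 (score 3.49 at W12 only) was just outside.

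Promoters of most cytokine genes were accessible in EpdSCs before SOX9. At D0, 33 of the 39 genes had a promoter peak, meaning one within 1 kb of a TSS, and 29 (W1), 31 (W2), 35 (W6) and 34 (W12) had one later, against 59.2 to 62.1% of 21815 protein-coding genes. In culture the number was 28 without DOX, 22 with WT-SOX9, 25 with ΔHMG-SOX9, 30 with ΔTA-SOX9, 26 in AFOS and 22 each in SOX9+AFOS and SOX9+ARID1a, against 49.9 to 55.9% of all genes. A promoter peak was present in all 12 lists for 14 of the 39 members, a smaller share than the 46.3% of all genes. The 14 were Il1rn, Il1r1, Il6ra, Osmr, Tnfrsf1a, Cxcl1, Cxcl16, Nfkb1, Nfkbia, Nfkbiz, Stat3, Socs3, Irf1 and Ptgs2. For 3 of the 39 members, Il33, Cxcl12 and Ccl2, a promoter peak was present in all 5 skin lists and no culture list (against 2.2% of all genes). Promoters of Il1rl1 and Csf2 were listed in culture only, and that of Il1b in no list.

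**Figure D1:**
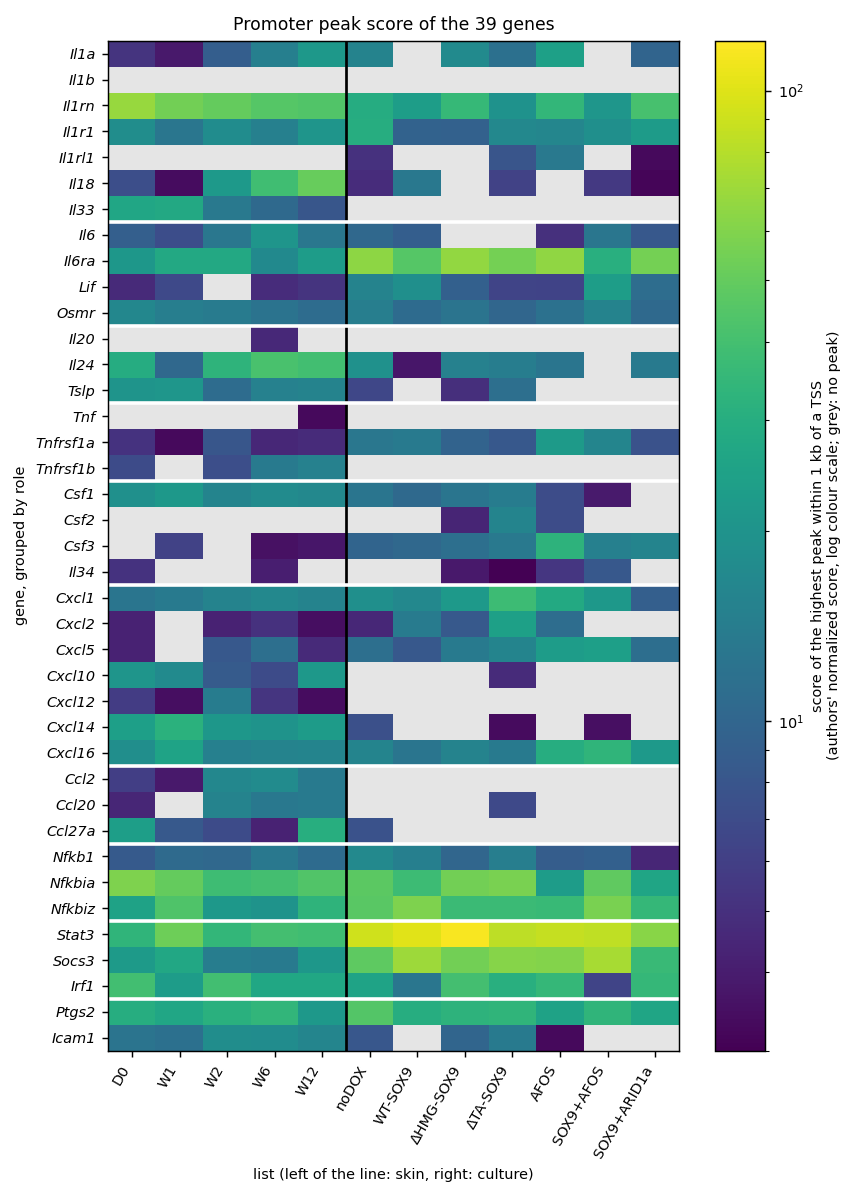
Score of the highest peak within 1 kb of a start site, for each of the 39 genes (rows, grouped by role) in each of the 12 lists (columns, skin left of the line and culture right of it), on a log colour scale with grey for no peak. The Il1a, Il18, Ccl2 and Ccl20 rows brighten from D0 to W6 and W12, the Il33 row darkens (with its highest peak at a different start site from W2 on), and Il33, Cxcl12, Ccl2, Tnfrsf1b, Tnf and Il20 are grey across culture.

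A set of cytokine promoters scored higher at W6 and W12 than at D0. Between D0 and W6 the promoter score was at least 2-fold higher for 6 of 33 members with a peak in both lists, against 3.23% of all such genes. The 6 were Il18 (5.29-fold), Ccl2 (3-fold), Ccl20 (2.97-fold), Il1a (2.85-fold), Cxcl5 (2.68-fold) and Il6 (2.22-fold). All had a D0 score under 10, where changes of this size were more common, and among genes with so low a D0 score they made up 6 of 13 members against a background of 14.8%. Between D0 and W12, 5 of 32 members were at least 2-fold higher, against 1.44% of all genes and, for a D0 score under 10, 5 of 12 members against 7.37%. Il18 (7.03-fold), Il1a (4.13-fold), Ccl20 (3.09-fold) and Ccl2 (2.26-fold) were among them again, joined by Tnfrsf1b (2.17-fold). At least 2-fold lower at W6 were 3 of 33 members, against 3.52%: Ccl27a (5.59-fold), Cxcl10 (2.97-fold) and Il33 (2.49-fold). Of these, only Il33 was at least 2-fold lower at W12 (3.29-fold), which made 1 of 32 members against 3.3%. A gene with several start sites can have its highest promoter peak at a different site in each list, and the folds of Il33 and Cxcl5 cross sites in this way. When only genes whose highest peaks overlapped in both lists were compared, 5 of 28 members were at least 2-fold higher at W6 (3.05% of all such genes) and 2 of 28 lower (3.4%), without Cxcl5 and Il33. At W12, 5 of 30 were higher (1.31%), with Tnfrsf1b in place of Il6, and 0 lower (3.16%). The Cxcl5 start site was at 11.5 at W6 with no peak at D0, and both Il33 start sites had a lower score at W6 and W12 than at D0, as given by site below. The median change of the members was -0.12 on the log2 scale from D0 to W6, against -0.16 over all genes, and 0.12 from D0 to W12, against -0.21. Promoters of other markers moved in the same lists. In skin Cd34 (5.9 and 3.03) and Lgr5 (5.73 and 7.73), which mark hair follicle stem cells, had peaks at W6 and W12 only, whereas the third marker of that list, Lhx2, had 21.1 (D0), 25 (W1), 13.3 (W2), 12.9 (W6) and 15.3 (W12). The endothelial marker Pecam1 had 9.21 (D0), 38.3 (W2), 42.2 (W6) and 41.4 (W12), with none at W1. Of the other endothelial markers, Tek had 6.03 (D0), 5.36 (W2) and 3.2 (W12), with none at W1 or W6, and Cdh5 had no skin peak. At D0, W6 and W12, the basal keratinocyte marker Krt5 had 21.7, 12.95 and 20.7, and Krt14 23.7, 13.2 and 21.2. In the same order Trp63 had 20.3, 10.2 and 16.5, and Itga6 14, 19.2 and 10.55. The melanocyte marker Dct had 38, 25.3 and 20.1, and Kit and Tyr had no skin peak. Their part in the promoter differences was not tested. With 1 list per group no replicate check of these differences was possible, and in bulk chromatin a lower score through fewer open cells and one through less accessibility per cell cannot be told apart.

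Across the skin time course, cytokine regions were more often static than other regions. Of 342 regions, 154 (45%, 95% Wilson interval 39.8 to 50.3%, which covers counting error only) were present in all 5 lists, against 37.8% of all skin regions. As given above, these regions also lay nearer to start sites, and the part of this in the difference was not tested. Regions with no peak at D0 and W1 and a peak in each later list, called gained at W2 and retained, numbered 27 (7.89%, against 7.99%). Those with peaks at W6 and W12 alone, called late gains, numbered 14 (4.09%, 2.45 to 6.75%, against 6.89%). This shortfall lay within the counting interval with a minimum score of 5 (4.66%, against 5.54%), lists of equal length (3.21%, against 4.08%), windows of 5 kb (3.77%, against 6.89%) and a common q minimum (3.87%, against 5.63%). Those with a peak at D0 and none from W2 on, called lost by W2, numbered 22 (6.43%, against 5.59%). Shares of retained gains and of losses were thus near the background. Without the list labelled W1, 173 of 328 regions were static (52.7%, against 43%) and 31 were gained at W2 and retained (9.45%, against 9.64%). With a common minimum −log10 q-value, 38% of the member regions were static (32.6 to 43.8%), against 34% of all regions under the same minimum, so that the interval took in the background. With lists cut to the same length or to that minimum, the number gained at W2 and retained was 14 or 11 and the number lost by W2 was 33 or 43, so these counts depend on the threshold. Shares of all regions moved likewise, to 5.94% or 3.76% for retained gains and to 9.77% or 14.6% for losses.

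Interval by interval, 27 of 228 W1 regions were gained from D0 (11.8%, against 15.4%) and 27 of 228 D0 regions were lost (11.8%, against 12.9%). From W1 to W2, 61 of 233 were gained (26.2%, against 29.2%) and 56 of 228 lost (24.6%, against 25%). From W2 to W6, 48 of 262 were gained (18.3%, 14.1 to 23.5%, against 26.4%) and 19 of 233 lost (8.15%, against 11%). From W6 to W12, 33 of 262 were gained (12.6%, against 14.5%) and 33 of 262 lost (12.6%, 9.11 to 17.2%, against 19.1%). The share gained was below that of all regions in each of the 4 intervals, and the Wilson interval left out the background only from W2 to W6, but not there with the common q minimum (22.9%, 17.4 to 29.6%, against 28.2%). For losses from W6 to W12 the interval took in the background with a minimum score of 5 (15.4%, against 19.1%), equal lengths (12.4%, against 16.4%) and the q minimum (6.15%, against 8.07%). The direction of the gains turned from D0 to W1 with a minimum score of 5 (15.5%, against 15.4%) and from W1 to W2 with the common q minimum (22.4%, against 20.3%). Skipping W1, 47 of 233 W2 regions were gained from D0 (20.2%, against 26.5%) and 43 of 229 D0 regions were lost (18.8%, against 19.9%).

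**Figure D2:**
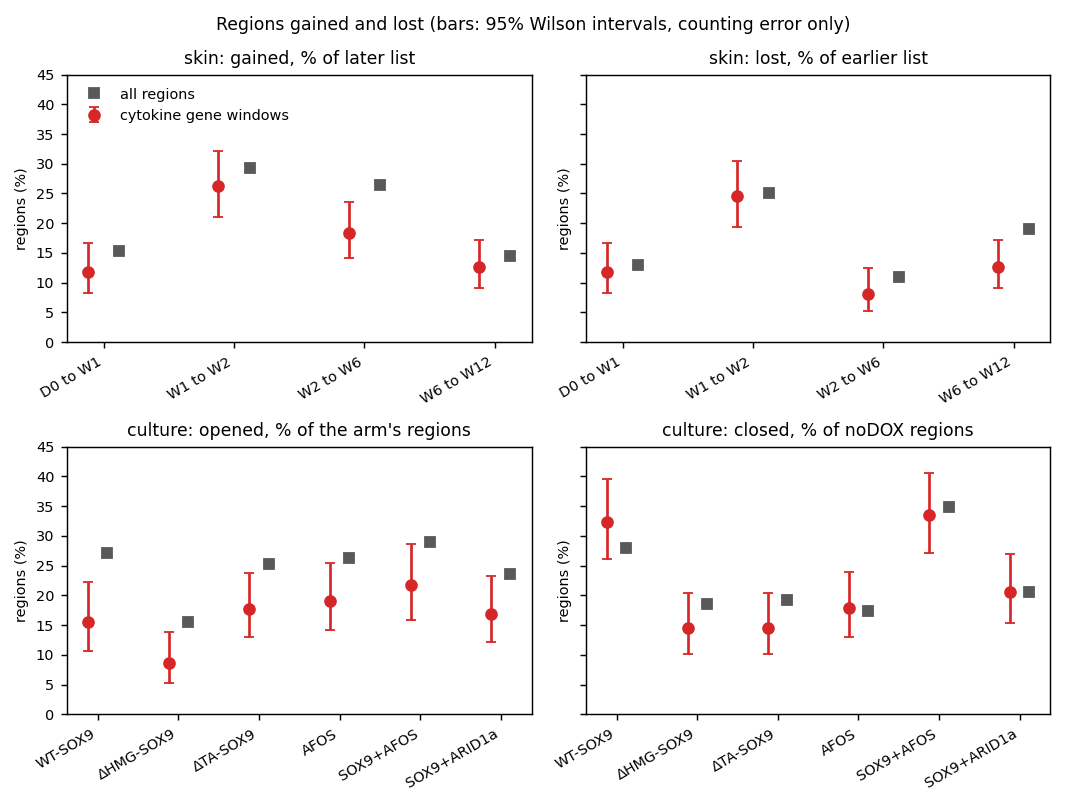
Percentage of regions gained or lost between successive skin lists (top) and opened or closed in each culture arm against noDOX (bottom), for the cytokine gene windows (red points with 95% Wilson intervals, counting error only) and for all regions (grey squares). Red points lie below grey squares in all 6 arms for opened regions, and above them for closed regions in WT-SOX9 (32.4% and 27.9%) and AFOS (17.8% and 17.3%), the latter turning to below with a minimum score of 5 (12.6% and 17.8%) and with lists of equal length (19% and 21.6%). Closed shares of ΔHMG-SOX9 (18.5% and 17.5%) and SOX9+AFOS (36.4% and 34.5%) turned to above with a minimum score of 5.

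In culture, WT-SOX9 closed more cytokine regions than it opened. WT-SOX9 opened 23 of its 148 regions (15.5%, 10.6 to 22.2%, against 27.1% of all regions) and closed 60 of the 185 noDOX regions (32.4%, 26.1 to 39.5%, against 27.9%). Genome-wide the numbers opened and closed were 14021 and 14641. ΔHMG-SOX9 opened 15 of 173 (8.67%, against 15.6%) and closed 27 of 185 (14.6%, against 18.5%), and ΔTA-SOX9 opened 34 of 192 (17.7%, against 25.3%) and closed 27 (14.6%, against 19.2%). These 6 comparisons share the noDOX list. The list labelled AFOS opened 36 of 188 (19.1%, against 26.3%) and closed 33 (17.8%, against 17.3%), and SOX9+AFOS opened 34 of 157 (21.7%, against 29%) and closed 62 (33.5%, against 34.9%). SOX9+ARID1a opened 30 of 177 (16.9%, against 23.6%) and closed 38 (20.5%, against 20.5%). Closed in all 6 arms were 4 regions (2.16%, against 2.6%), 1 each in the windows of Il1r1, Il1rl1, Nfkbiz and Ccl27a, and opened in all 6 was the Csf2 region (0.351%, against 0.212%). Both counts were the same without the AFOS list. The share closed by AFOS fell below that of all regions with a minimum score of 5 (12.6%, against 17.8%) and with lists of equal length (19%, against 21.6%), and that closed by SOX9+ARID1a lay above it under the same settings (25.8%, against 20.8%, and 28.2%, against 23.9%). With a minimum score of 5, the shares closed by ΔHMG-SOX9 (18.5%, against 17.5%) and SOX9+AFOS (36.4%, against 34.5%) also turned to above that of all regions.

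The promoter scores of 22 members could be compared between noDOX and WT-SOX9. At least 2-fold higher were 2 (Cxcl2 and Il18 at 2.74-fold, against 2.98% of all genes), and at least 2-fold lower were 3 (Il24, Il1r1 and Irf1 at 2.01-fold, against 2.44%). The Irf1 fold crosses sites, since the peak centred 1004 bp upstream had 25.6 in noDOX and 12 in WT-SOX9, and that over the start had 12.4 and 12.7. Where the highest peaks overlapped in both lists, 2 of 21 members were higher (2.85%) and 2 lower (2.3%). The median change was -0.22 on the log2 scale for members and 0.23 for all genes. Neither of the 2 higher promoters was called with a minimum score of 5.

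Il1a encodes IL-1α, an alarmin that keratinocytes store and release on damage. Its promoter score in skin was 5.19 (D0), 3.86 (W1), 9 (W2), 14.8 (W6) and 21.4 (W12). In culture it was 15.7 in noDOX, 17.4 in ΔHMG-SOX9, 11.7 in ΔTA-SOX9, 24.4 in AFOS and 9.81 in SOX9+ARID1a, with no peak in WT-SOX9 or SOX9+AFOS. The W12 score was the highest in skin, and both lists without the peak were arms labelled with wild-type SOX9, although SOX9+ARID1a, labelled likewise, kept it. A site 18897 bp upstream (chr2:129328494-129329244) had a score of 23.1 in WT-SOX9 and no peak in the other 11 lists. The site 6142 bp upstream whose sequence is printed above had no peak in skin, and its culture scores were 19.8 in noDOX, 9.06 in WT-SOX9, 24.9 in ΔHMG-SOX9, 48.4 in ΔTA-SOX9, 35.1 in AFOS, 4.97 in SOX9+AFOS and 7.19 in SOX9+ARID1a. Thus the Il1a window held 1 region listed in WT-SOX9 alone and 1 that was listed throughout culture and nowhere in skin.

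Il18 encodes a cytokine that inflammasomes activate and that induces interferon-γ. Its promoter score in skin was 7.29 (D0), 3.41 (W1), 22 (W2), 38.6 (W6) and 51.3 (W12). No member promoter differed more between D0 and W12. In culture the same promoter (chr9:50554580-50555384) had 4.81 in noDOX, 13.2 in WT-SOX9, 6.23 in ΔTA-SOX9 and 3.16 in SOX9+ARID1a, with no peak in ΔHMG-SOX9, AFOS or SOX9+AFOS. The SOX9+AFOS peak within 1 kb of a start site (5.55) lay at another start of the gene (chr9:50565146-50565533). The intron 4929 bp downstream of a start site (chr9:50569989-50570617), shown above with its AP1 match, was gained at W2 and retained, with scores of 13.1 (W2), 38.4 (W6) and 34.6 (W12), with no peak at D0 or W1. Culture scores of this intron were 39.8 in noDOX, 23.8 in WT-SOX9, 48.7 in ΔHMG-SOX9, 26 in ΔTA-SOX9, 38.2 in AFOS, 4.64 in SOX9+AFOS and 34.5 in SOX9+ARID1a. The SOX9+AFOS score was the lowest of the 10 lists with a peak. A region 15804 bp downstream, nearer to Sdhd, was gained late, at 11.6 (W6) and 15 (W12), with no peak at D0, W1 or W2. Of 9 skin regions in the Il18 window, 4 were gained at W2 and retained (7.99% of all skin regions), 1 was gained late (6.89%) and 1 was static (37.8%).

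**Figure D3:**
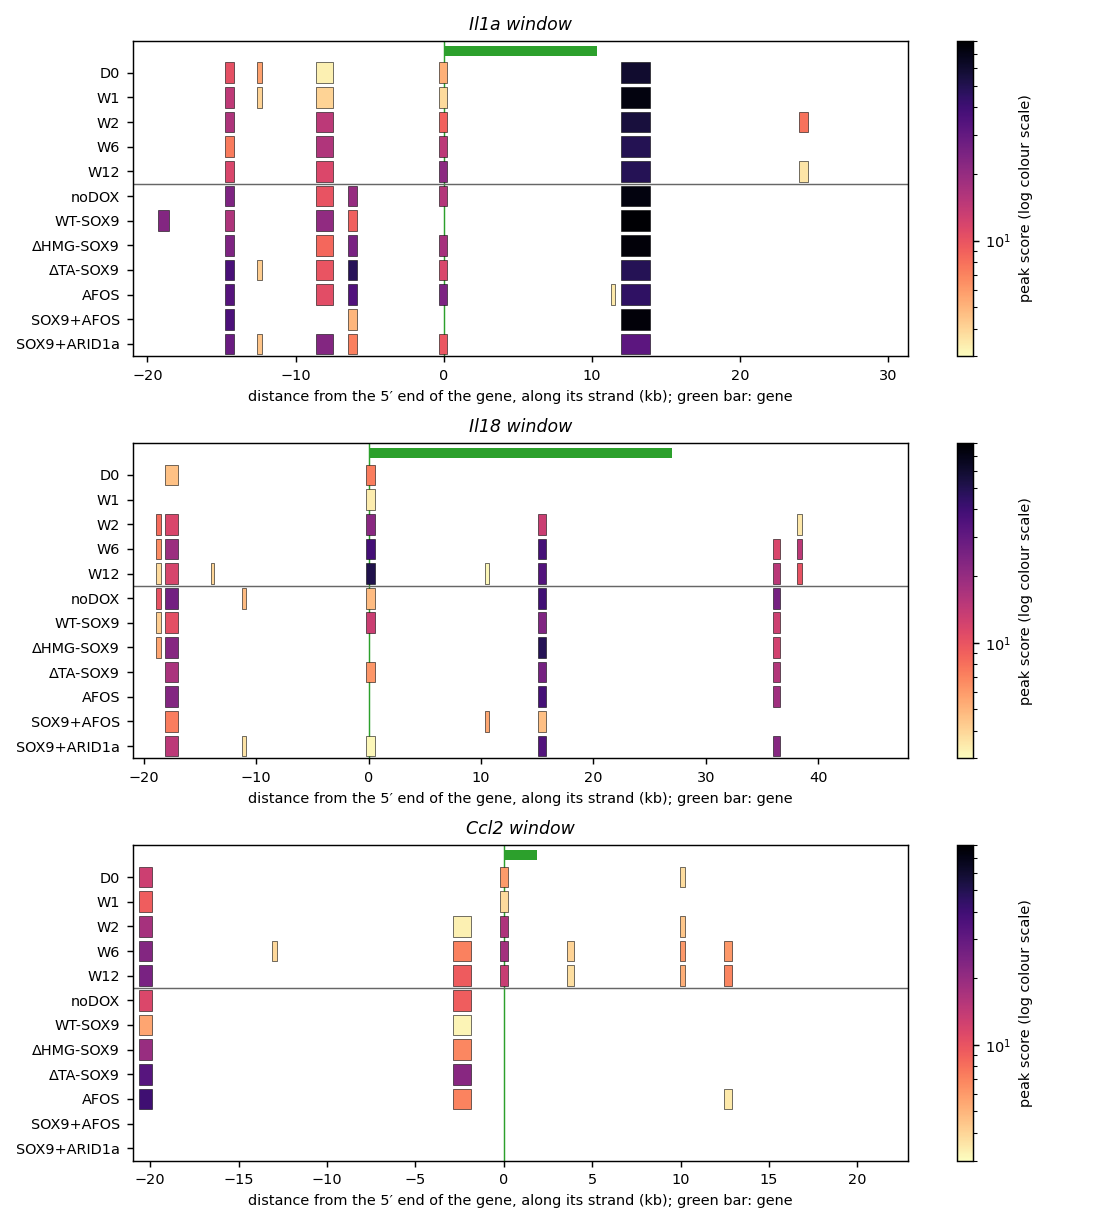
Regions in the windows of Il1a, Il18 and Ccl2, placed to scale by distance in kb from the 5′ end of the gene along its strand (green bar, the gene), with 1 row per list and the peak score as a log colour scale. Boxes span the region merged over all lists. In skin, the Il18 intron and the region 2401 bp upstream of Ccl2 appear from W2, and the Il1a promoter box is missing in WT-SOX9 and SOX9+AFOS.

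Il33, a nuclear alarmin that signals through Il1rl1, scored lower at both of its start sites at W12 than at D0. The start site used within the gene (chr19:29945479-29945984) had scores of 26.5 (D0), 27.8 (W1), 12.3 (W2), 5.11 (W6) and 6.57 (W12), and that at the 5′ end had 12.4 (D0), 15.7 (W1), 13.3 (W2), 10.7 (W6) and 8.08 (W12). Neither had a peak in any culture list. Of 14 skin regions in the same window, 3 were gained at W2 and retained (against 7.99%), including an AP1-containing site 7492 bp upstream with scores of 3.11 (W2), 6.85 (W6) and 14.7 (W12), with no peak at D0 or W1. That site was listed in all 7 culture lists, at 18.5 in noDOX, 8.64 in WT-SOX9, 23.1 in ΔHMG-SOX9, 24.7 in ΔTA-SOX9, 30.7 in AFOS, 3.23 in SOX9+AFOS and 30 in SOX9+ARID1a. The start sites thus scored lower at W12, while 3 distal sites in the same window were listed in skin only from W2.

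Il1rn encodes the antagonist of the IL-1 receptor and had the strongest cytokine promoter at D0, with scores of 68.1 (D0), 54.7 (W1), 50.4 (W2), 45.5 (W6) and 44.1 (W12). Its culture scores were 29.5 in noDOX, 23.5 in WT-SOX9, 35.6 in ΔHMG-SOX9, 19.7 in ΔTA-SOX9, 34.5 in AFOS, 20.7 in SOX9+AFOS and 41 in SOX9+ARID1a. A region 1264 bp upstream (chr2:24335327-24335850) was gained at W2 and retained, at 16.5 (W2), 22 (W6) and 9.57 (W12), with no peak at D0 or W1, and was listed in no culture list. Il1r1, the signalling receptor, had a promoter peak in all 12 lists, at 12.7 to 20.4 in skin, and its score was 3.13-fold lower in WT-SOX9 (9.55) than in noDOX (29.8). The same peak was below noDOX in the other arms too. It had 7.24 in ΔHMG-SOX9, 16.7 in ΔTA-SOX9, 16.4 in AFOS, 11.35 in SOX9+AFOS and 22.8 in SOX9+ARID1a. A region past the 3′ end of Il1r1 (chr1:40317759-40318394), nearer to Il1rl2, was closed by WT-SOX9, with 13 in noDOX, 17.1 in ΔHMG-SOX9, 7.07 in ΔTA-SOX9, 8.92 in AFOS, 9.96 in SOX9+AFOS and 9.17 in SOX9+ARID1a, with no peak in WT-SOX9. The IL-33 receptor gene Il1rl1 had no promoter peak in skin, and in culture its scores were 5.08 in noDOX, 7.92 in ΔTA-SOX9, 13.3 in AFOS and 3.3 in SOX9+ARID1a, with no peak in WT-SOX9, ΔHMG-SOX9 or SOX9+AFOS. Of 8 noDOX regions in the Il1rl1 window, 6 were closed by WT-SOX9 (27.9% of all noDOX regions) and 5 by SOX9+AFOS (34.9%). Il1b, an inflammasome-processed cytokine of myeloid cells above all, had no promoter peak, but a region 14360 bp upstream was gained at W2 and retained, at 12.1 (W2), 6.43 (W6) and 3.03 (W12), with no peak at D0 or W1, and opened by WT-SOX9 (3.04).

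Over the 7 genes of the IL-1 family, 65 skin regions included 23 static, 11 gained at W2 and retained, 3 gained late and 5 lost by W2. The retained gains were 16.9% of these regions, against 7.99% of all skin regions, and the static ones 35.4%, against 37.8%. In culture WT-SOX9 opened 5 of its 26 regions (19.2%, against 27.1%) and closed 17 of the 38 noDOX regions (44.7%, against 27.9%). The family was singled out after its values were seen.

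Il6 and its receptor Il6ra differed in coverage. Il6, the acute-phase cytokine, had only 3 regions, and its promoter, which held an NF-kB match, had scores of 9.2 (D0), 7.13 (W1), 12.9 (W2), 20.4 (W6) and 12.9 (W12). In culture they were 10.5 in noDOX, 9.09 in WT-SOX9, 5.03 in AFOS, 12.9 in SOX9+AFOS and 8.32 in SOX9+ARID1a, with no peak in ΔHMG-SOX9 or ΔTA-SOX9. Il6ra had 16 regions, and its promoter was at 17.3 to 27.7 in skin and at 30.7 to 65.8 in culture. Lif, a STAT3-activating cytokine, had promoter scores of 4.67 to 6.77 in the 4 skin lists that held a peak (none at W2) and of 6.28 to 23.4 in culture. Osmr, the receptor for oncostatin M, had a promoter peak in all 12 lists, at 10.2 to 16.6. Of 14 skin regions in its window, 2 were gained at W2 and retained (7.99% of all skin regions) and 3 were lost by W2 (5.59%). The site 4722 bp upstream of Osmr (chr15:6879391-6879990) was both gained in skin and opened in culture, at 9.17 (W2), 9.95 (W6) and 7.35 (W12), with no peak at D0 or W1. In culture its scores were 23.4 in WT-SOX9 and 3.56 in SOX9+ARID1a, and the other 5 lists had no peak.

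Il24, a cytokine of the IL-20 subfamily, had promoter scores of 29.4 (D0), 10.4 (W1), 33 (W2), 41.7 (W6) and 39.1 (W12). In culture they were 19.4 in noDOX, 3.73 in WT-SOX9, 15.1 in ΔHMG-SOX9, 14.3 in ΔTA-SOX9, 12.7 in AFOS and 13.5 in SOX9+ARID1a, with no peak in SOX9+AFOS, so that the WT-SOX9 score was 5.2-fold lower than noDOX. Il20 had a promoter peak at W6 alone (4.61). Tslp, which drives type 2 responses, had a promoter peak in all 5 skin lists (11.1 to 20.9) and in noDOX (6.62), ΔHMG-SOX9 (4.96) and ΔTA-SOX9 (11.6) of the culture lists. Among member regions lost by W2 without return, the one with the highest D0 or W1 score lay 19336 bp downstream of Tslp, nearer to Wdr36, at 9.99 (D0) and 17.8 (W1), with no peak at W2, W6 or W12. Of the 15 skin regions of these 3 genes, 0 were gained at W2 and retained, against 7.99% of all skin regions, a number too small to read a difference from.

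Tnf, the archetypal NF-kB-activating cytokine, had a listed promoter peak at W12 alone (3.3). An intron 1417 bp downstream (chr17:35200355-35200818) with an AP1 match was gained at W2 and retained, at 3.82 (W2), 9.39 (W6) and 17.9 (W12), with no peak at D0 or W1. Outside skin it was listed in ΔTA-SOX9 (8.64) and AFOS (3) only. Tnfrsf1a, the TNF receptor of most cells, had a promoter peak in all 12 lists, at 7.55 to 22.3 in culture. In skin the site at its 5′ end had 5.17 (D0), 3.27 (W1), 3.94 (W6) and 4.71 (W12), with no peak at W2, and a start site within the gene had 8.03 (W2), 4.54 (W6) and 3.83 (W12), with no peak at D0 or W1. Tnfrsf1b, the inducible TNF receptor, had promoter scores of 6.99 (D0), 7.3 (W2), 13.5 (W6) and 15.2 (W12), with no peak at W1, and none in culture. Its upstream site printed above (chr4:145254277-145254920) had skin scores of 13.6 (D0), 7.13 (W1), 24 (W2), 38.1 (W6) and 28.8 (W12) and no peak in culture. Of the 11 skin regions of Tnfrsf1b, 3 were gained at W2 and retained, against 7.99% of all skin regions.

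**Figure D4:**
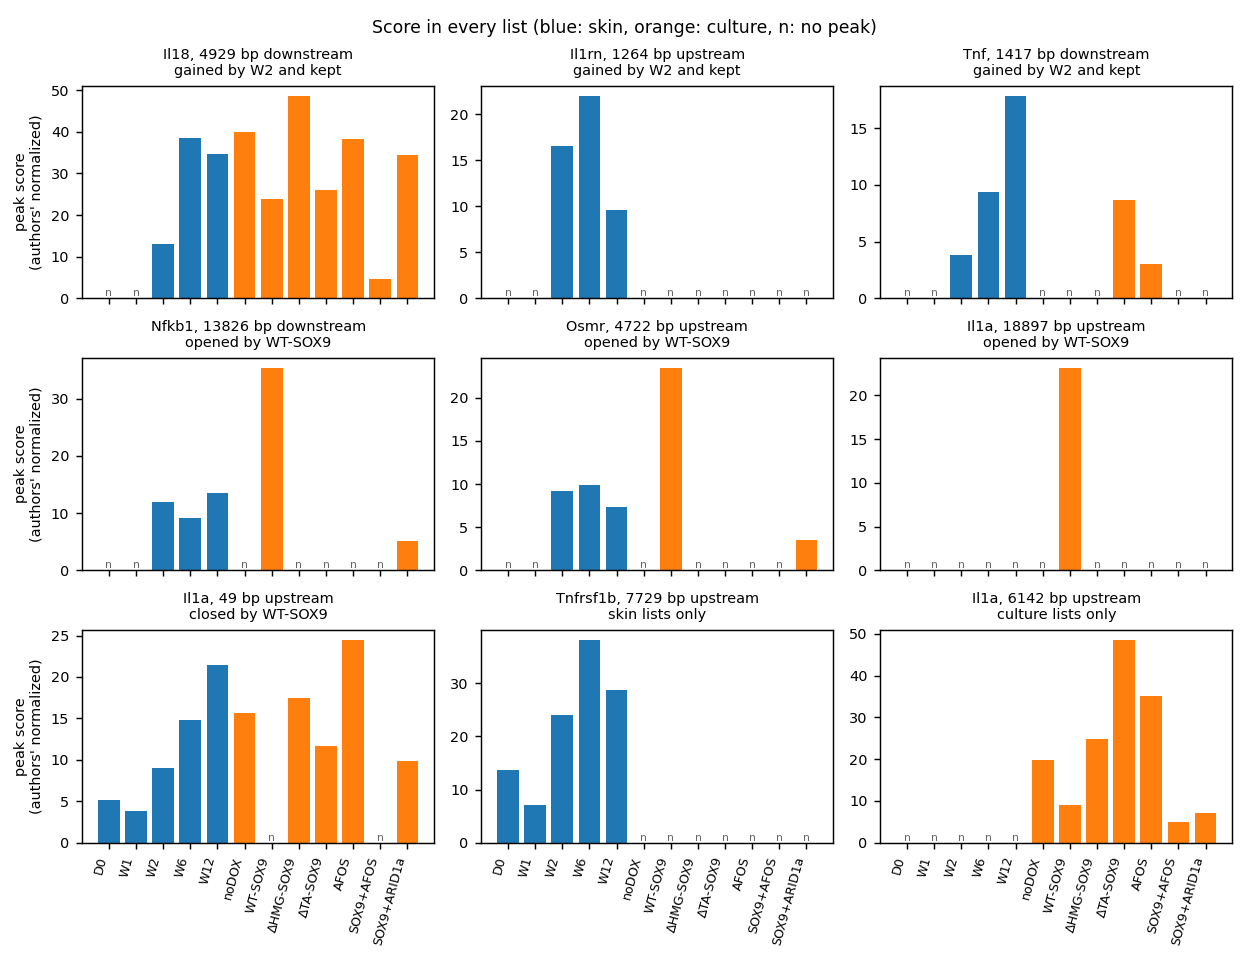
Authors' normalized peak score of 9 named regions in each of the 12 lists (bars, blue for skin and orange for culture, n for no peak), with the distance from a start site of the gene in each title. The Il18, Il1rn and Tnf regions appear from W2, the Nfkb1 and Osmr regions appear from W2 in skin and with WT-SOX9 in culture, and the Il1a promoter has no bar in WT-SOX9 or SOX9+AFOS.

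Csf1 encodes the macrophage growth factor M-CSF and had a promoter peak in all 5 skin lists (15.9 to 21.4) and in 6 culture lists (3.92 to 14.1), with none in SOX9+ARID1a. Csf2, encoding GM-CSF, had a promoter peak in no skin list. In culture it had one in ΔHMG-SOX9 (4.43), ΔTA-SOX9 (15.9) and AFOS (7.04). In its window those same labels opened the most regions, 5 of 7, 6 of 8 and 6 of 8 of those listed in the arm. WT-SOX9 opened 2 of 3, SOX9+AFOS 1 of 2 and SOX9+ARID1a 3 of 4, numbers too small to read a difference in shares from. In the same order, the 6 arms opened 15.6%, 25.3%, 26.3%, 27.1%, 29% and 23.6% of all their regions. The only member region opened in all 6 arms lay 7547 bp upstream of Csf2, at 7.97 in WT-SOX9, 9.06 in ΔHMG-SOX9, 6.92 in ΔTA-SOX9, 14.4 in AFOS, 11.3 in SOX9+AFOS and 3.61 in SOX9+ARID1a, with no peak in noDOX. Csf3, encoding the neutrophil factor G-CSF, had promoter scores of 9.85 to 32.8 in all 7 culture lists and of 3.55 to 6.17 in 3 skin lists. A region 4848 bp downstream of Csf3, in an intron of Med24, was listed in no skin list and closed by WT-SOX9, with 13.8 in noDOX, 10.8 in ΔHMG-SOX9, 12.1 in ΔTA-SOX9, 11.9 in AFOS and 17.8 in SOX9+ARID1a, with no peak in WT-SOX9 or SOX9+AFOS. Il34, the other ligand of the CSF1 receptor, had 23 regions. Its promoter had a peak at D0 (5.12) and W6 (4.08) in skin. An intron 11182 bp downstream (chr8:110794258-110795121) was listed in all 7 culture lists and no skin list, at 16.7 in noDOX, 36.9 in WT-SOX9, 20 in ΔHMG-SOX9, 32.5 in ΔTA-SOX9, 18.5 in AFOS, 3.84 in SOX9+AFOS and 34.4 in SOX9+ARID1a.

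Cxcl1, Cxcl2 and Cxcl5 encode neutrophil attractants. Cxcl1 had promoter scores of 12.5 to 16.7 in skin and 9.18 to 37.7 in culture, and Cxcl2 of 3.43 to 5.05 in 4 skin lists and 4.51 to 24.3 in 5 culture lists. The Cxcl5 start site had skin scores of 8.31 (W2), 11.5 (W6) and 4.68 (W12), with no peak at D0 or W1, and a peak centred 1067 bp upstream had 4.3 (D0), 6.83 (W2), 5.84 (W6) and 3.11 (W12), with no peak at W1. From noDOX to WT-SOX9 the Cxcl2 promoter score was 3.08-fold higher (4.51 and 13.9). In the other arms it was 8.35 in ΔHMG-SOX9, 24.3 in ΔTA-SOX9 and 11.2 in AFOS, with no peak in SOX9+AFOS or SOX9+ARID1a. Cxcl10, an interferon-induced T-cell attractant, had promoter scores of 20.6 (D0), 17.4 (W1), 8.64 (W2), 6.93 (W6) and 21.6 (W12), and in culture only ΔTA-SOX9 had a peak (4.74). A region 11491 bp upstream of Cxcl10, in an intron of Art3, was gained at W2 and retained, at 13.8 (W2), 3.92 (W6) and 4.3 (W12), with no peak at D0 or W1. In culture that region was opened by WT-SOX9 (17.9), SOX9+AFOS (7.71) and SOX9+ARID1a (11.8). By label, these 3 arms are those given DOX with wild-type SOX9, and no other culture list had the peak. The score over the last Sox9 exon was 21.2 in WT-SOX9, 5.11 in SOX9+AFOS and 3.71 in SOX9+ARID1a, against 3.71 in noDOX.

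Promoters of Cxcl12, Cxcl14 and Ccl27a scored mainly in skin. Cxcl12, the CXCR4 ligand, had promoter scores of 5.77 (D0), 3.42 (W1), 14.1 (W2), 5.31 (W6) and 3.38 (W12), and none in culture. Its untranslated sequence 10029 bp downstream was gained late, at 3.97 (W6) and 12.6 (W12), with no peak at D0, W1 or W2. Of 6 regions in the Cxcl12 window, 5 were listed in skin only, against 27.9% of all regions. Cxcl14, which epithelia make constitutively, had promoter scores of 19.9 to 31.5 in skin and of 3.34 to 7.4 in 3 culture lists. Cxcl16, a membrane-bound chemokine, had 15 to 25.4 in skin and 12.5 to 33.7 in culture, but that peak is centred 28 bp from the start of Zmynd15 and cannot be assigned to 1 of the genes. Ccl27a, the skin-homing chemokine of keratinocytes, had 23.8 (D0), 8.37 (W1), 7.01 (W2), 4.26 (W6) and 30.2 (W12). In noDOX its score was 7.64, and the peak was absent in all 6 arms.

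Ccl2 recruits monocytes, and its promoter had scores of 5.95 (D0), 3.86 (W1), 16.4 (W2), 17.9 (W6) and 13.5 (W12), with no peak in culture. A region 2401 bp upstream of it was gained at W2 and retained, at 3.3 (W2), 7.17 (W6) and 9.32 (W12), with no peak at D0 or W1. The Ccl20 promoter, for the ligand of CCR6 on T cells and Langerhans cells, had 4.44 (D0), 15.6 (W2), 13.2 (W6) and 13.7 (W12), with no peak at W1, and in culture a peak in ΔTA-SOX9 alone (6.72). Another region, 5191 bp upstream of Ccl20, held a SOX match and was opened by WT-SOX9, with 18.6 in WT-SOX9, 4.41 in ΔTA-SOX9, 4.22 in AFOS, 25.4 in SOX9+AFOS and 18.3 in SOX9+ARID1a, with no peak in noDOX or ΔHMG-SOX9. Skin peaks overlapped this merged region at 4 of the 5 time points, D0 included, and need not overlap the peak of each arm.

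Nfkb1, encoding the p105 precursor of the p50 subunit, had 32 regions. Of the 29 in skin, 3 were gained late (6.89% of all skin regions), 2 were gained at W2 and retained (7.99%) and 11 were static (37.8%). Its promoter scores were 8.58 to 13.2 in skin and 4.47 to 17 in culture. The intron 13826 bp downstream (chr3:135594056-135594831) had skin scores of 11.9 (W2), 9.21 (W6) and 13.6 (W12), with no peak at D0 or W1. In culture it was 35.3 in WT-SOX9, the highest score of any member region opened by that arm, and 5.15 in SOX9+ARID1a, with no peak elsewhere. The intron at chr3:135623181-135624071 was the strongest region gained late, with 9.82 at W6 and 15.9 at W12, and had no peak in culture. A further intron (chr3:135640983-135642173) was static, at 71 (D0), 57.1 (W1), 56 (W2), 27.4 (W6) and 33.4 (W12). Its culture scores were 35.8 in noDOX, 23.5 in WT-SOX9, 27.9 in ΔHMG-SOX9, 17.8 in ΔTA-SOX9, 15.9 in AFOS, 8.57 in SOX9+AFOS and 43.8 in SOX9+ARID1a. Nfkbia, which encodes the feedback inhibitor IκBα, had promoter scores of 38.4 to 58.5 in skin and 22.9 to 57.2 in culture, and Nfkbiz, encoding the atypical IκBζ, had 19.9 to 43.5 and 34.9 to 58.5.

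Stat3, the transcription factor of the IL-6 and IL-20 families, had promoter scores of 33.7 to 53.5 in skin and of 62.2 to 115 in culture, the highest of all members in each culture list. An intron 8399 bp downstream was lost by W2, at 6.45 (D0) and 5.22 (W1), with no peak at W2, W6 or W12. Socs3, its feedback inhibitor, had 13.5 to 27.5 in skin and 36.4 to 73.9 in culture. A region 6582 bp downstream of Socs3 was gained at W2 and retained, at 4.23 (W2), 3.81 (W6) and 4.87 (W12), with no peak at D0 or W1. In culture the same region had 7.91 in noDOX, 24.3 in ΔHMG-SOX9, 63.1 in ΔTA-SOX9, 25.5 in AFOS, 3.61 in SOX9+AFOS and 5.04 in SOX9+ARID1a, with no peak in WT-SOX9. Irf1, an interferon-induced factor, had promoter scores of 23.1 to 39.4 in skin. In culture its upstream peak had 25.6 in noDOX, 12 in WT-SOX9, 39.8 in ΔHMG-SOX9, 30.7 in ΔTA-SOX9, 34.9 in AFOS and 35.2 in SOX9+ARID1a, with no peak in SOX9+AFOS, and the peak over the start had 12.4 in noDOX, 12.7 in WT-SOX9, 8.5 in ΔHMG-SOX9, 16.5 in ΔTA-SOX9, 10.8 in AFOS and 6.38 in SOX9+AFOS, with no peak in SOX9+ARID1a. Ptgs2, encoding the prostaglandin synthase COX-2, had 21.5 to 34.2 in skin and 25.2 to 44.6 in culture, and its site 10767 bp upstream was lost by W2, at 7.09 (D0) and 6.33 (W1), with no peak at W2, W6 or W12. Icam1, a leukocyte adhesion receptor, had 11.8 to 18.3 in skin and, in culture, 8.16 in noDOX, 10.1 in ΔHMG-SOX9, 13.8 in ΔTA-SOX9 and 3.28 in AFOS, with no peak in WT-SOX9, SOX9+AFOS or SOX9+ARID1a.

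**Figure D5:**
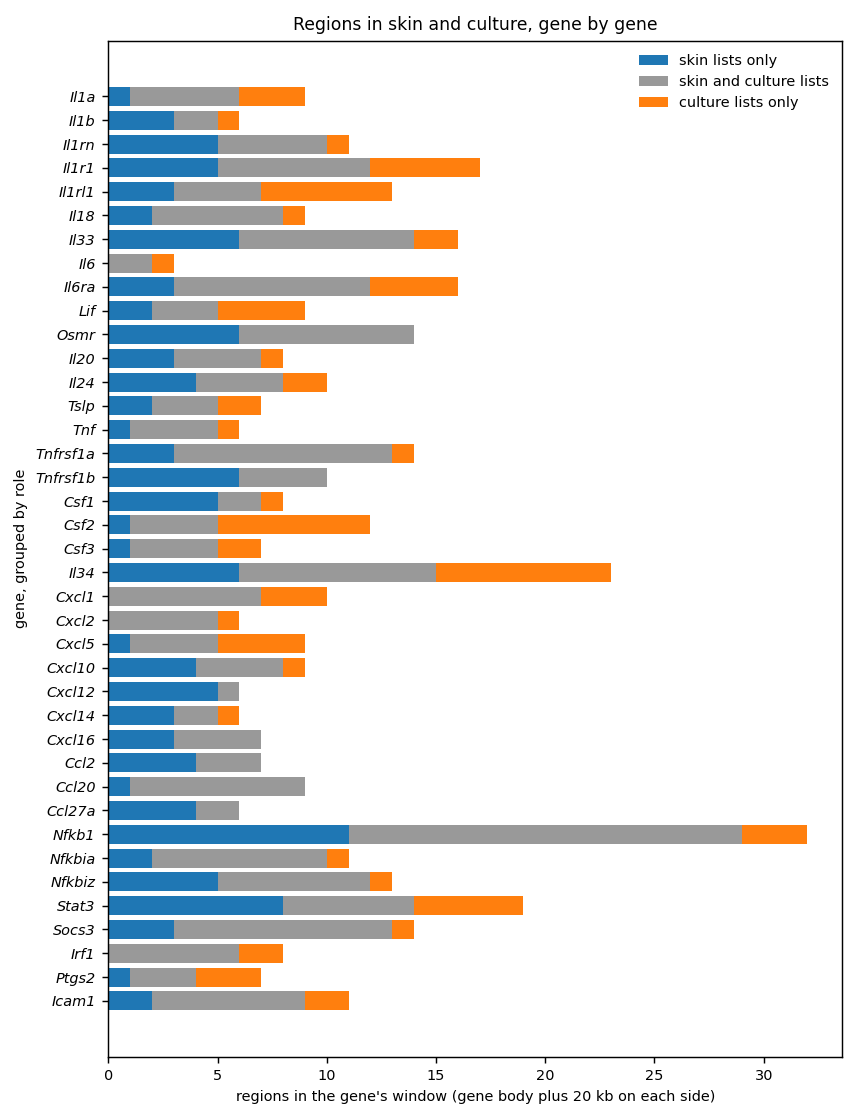
Number of regions in the window of each of the 39 genes (rows, grouped by role) that were listed in skin only (blue), in skin and culture (grey) and in culture only (orange), counted on regions merged over all 12 lists. Nfkb1 has the longest bar (32), Cxcl12 has 5 of 6 regions in skin only (27.9% of all regions), and Csf2 has 7 of 12 in culture only (29.1% of all regions).

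Before any SOX9 was induced, the cytokine regions of skin and culture, taken over both lists, overlapped no less than regions at large. Of 224 regions present at D0, 91 (40.6%, against 41.2% of all regions) had no peak in noDOX. This share turned to above the background with a minimum score of 5 (42.9%, against 40.4%) and equal lengths (43.3%, against 43.2%). It did so too with 5 kb windows (41.6%, against 41.2%) and 25% coverage (42.5%, against 42.3%). Of 185 present in noDOX, 52 (28.1%, 22.1 to 35%, against 38.9%) had none at D0 (31.1%, 24.3 to 38.9%, against 38.5% with a minimum score of 5), and 133 of the 276 regions in either list were in both (48.2%, against 42.8%). Over all lists, 205 regions (50.2%, against 43%) were found in skin and culture, 123 in skin only (30.1%, against 27.9%) and 80 in culture only (19.6%, against 29.1%). Listed in all 5 skin and no culture list were 26 (6.37%, against 4.41%), including the start sites of Ccl2, Cxcl12 and Il33, 3 regions of Csf1 and the site upstream of Tnfrsf1b. One in the Ccl27a window, at 21.6 to 28.9, lay at the promoter of the IL-11 receptor gene Il11ra1. In all 7 culture and no skin list were only the Il1a and Il34 sites (0.49%, against 0.982%). Sorted cells and cultures also differ in age, medium and construct, so tissue and culture conditions cannot be told apart.

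SOX9 induction was compared between skin and culture on regions absent from both starting lists. Of 132 such regions, 29 had a peak at W2 and 19 were opened by WT-SOX9 (11182 and 12218 of 59639 over all regions). In both sets were 6, which is 20.7% of the former and 31.6% of the latter (21.2% and 19.4% over all regions). Of the regions without a peak at W2, WT-SOX9 opened 12.6% (20.3% over all regions). The 6 were 2 introns of Nfkb1 and the sites upstream of Osmr, Cxcl10, Il1b and Csf2. The Csf2 site already had a peak at W1 (4.33), and after W2 (3.97) it had none. Of 133 regions present in both starting lists, 10 had no peak at W2 and 34 were closed by WT-SOX9 (2334 and 5171 of 31992 over all regions). In both sets were 7 (70% and 20.6%, against 48.6% and 21.9%). Of the regions with a peak at W2, WT-SOX9 closed 22% (13.6% over all regions).

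Motif content was described over the central 200 bp. An NF-kB match lay in 13 of 342 skin regions (3.8%, against 1.24% of all skin regions) and in 10 of 285 culture regions (3.51%, against 1.15%). Among the 27 regions gained at W2 and retained, 3 held one (11.1%, against 1.16%), and 12 held an AP1 match (44.4%, against 26.9%). None of the 27 held a SOX match (0%, against 12.2% of all regions of that class), which says only that these letters are not in the window. Among the 14 late gains, 7 held AP1 letters (50%, against 39.9%), and of the 22 lost by W2, 3 had a GATA match (13.6%, against 23.1%). Static regions had STAT matches at 17 of 154 (11%, against 5.6%). In culture, 2 of the 23 regions opened by WT-SOX9 had a SOX match (8.7%, against 16.8%), 16 of the 60 it closed had an AP1 match (26.7%, against 29.9%), and none of the 34 opened in SOX9+AFOS had one (0%, against 4.32%). AP1 matches were also fewer than in all regions among those opened in ΔTA-SOX9 (11.8%, against 32.7%) and those gained from W6 to W12 (9.09%, against 32.3%). A match is a description of letters and does not show binding.

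The NF-kB matches of the regions gained at W2 and retained are shown with 20 bases on either side, a choice made after the matches were counted. Here capitals mark the NF-kB match alone, and other matches stay in lower case. Those upstream of Ccl2 lie at chr11:82033171-82033220 and chr11:82033197-82033246, that downstream of Socs3 at chr11:117962592-117962641, and that in a noncoding exon of Osmr at chr15:6857674-6857723.
Ccl2 match further upstream: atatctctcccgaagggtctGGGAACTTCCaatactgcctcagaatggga
Ccl2 match nearer the gene: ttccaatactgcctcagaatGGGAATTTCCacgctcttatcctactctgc
Socs3 match: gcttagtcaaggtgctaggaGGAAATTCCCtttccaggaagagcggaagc
Osmr match: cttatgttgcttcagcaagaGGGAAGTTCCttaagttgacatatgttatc

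The Ccl2 and Osmr regions also held an AP1 match and the Socs3 region a STAT match. All 3 had their highest culture score in ΔTA-SOX9, at 22.3 for Ccl2, 63.1 for Socs3 and 8.53 for Osmr, and WT-SOX9 had 3.21 at Ccl2 and no peak at Socs3 and Osmr.

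Genes of the same pathway that were not among the 39 were described with the same windows. These 22 receptors and signal transducers, such as Il1rap, Il6st, Myd88, Rela and Jak1, had 188 skin and 140 culture regions. In skin 94 were static (50%), 13 were gained at W2 and retained (6.91%), 9 were gained late and 9 were lost by W2. WT-SOX9 opened 16 of 87 (18.4%) and closed 23 of 94 (24.5%). Like the 39 genes, they had a higher static share and a lower opened share than all regions, whereas their closed share was below the background of 27.9%.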

How the data were processed

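ATAC-seq was performed on 24 samples in 12 groups of 2, and the authors deposited 1 peak list per group, made from both replicates. Per the submitters' processing notes, Bowtie2 2.2.9, SAMtools 1.9, Picard 2.3.0, MACS2 2.1.1 and deepTools 2.5.4 were used on GRCm38. The deposited score was taken as a peak score normalized by the authors. That it is comparable between lists was inferred from the near-equal totals of 925672 to 996710 per list, and every fold between lists rests on this. The skin lists also hold the fold enrichment and the −log10 q-value that the authors took from MACS2, and the latter served 1 alternative. Read depth is not in the files, so precision is limited by an unknown depth, and Wilson 95% intervals cover counting error only.

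Peaks were merged when they overlapped by at least 1 bp, over all lists and over the skin and culture lists separately. A region was a member when it overlapped 1 of 39 genes or 20 kb on either side. Presence meant a listed peak. A gain is given as a share of the later list (or of the arm), and a loss as a share of the earlier list (or of noDOX). With 1 list per group no test was run, and shares are given beside the same share of all regions. Sequences are from the RefSeq GRCm38.p6 genome. Python 3.11.15, numpy 2.4.6, scipy 1.17.1, pysam 0.24.0 and matplotlib 3.10.9 were used, and the class calls were tested on simulated data. The members, gene lists and classes were chosen with earlier results of these data known. Named regions were the 3 with the highest score, 1 per gene, in each of 8 classes. Other regions, the promoter changes of at least 2-fold and the NF-kB matches were chosen after their values were seen. Alternatives were a minimum score of 5, lists cut to 57334 (skin) or 49458 (culture) peaks, windows of 5 kb, a 25% coverage for presence, a common −log10 q minimum of 14.48 in skin, the W1 or AFOS list left out, and, added after seeing the data, promoter folds only where the highest peaks of both lists overlap.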

Additional observations from a re-analysis of the deposited data

How the results depend on the processing

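Under a 25% coverage rule, 33 of 33 values stayed within 1.5 times the main count or the 95% interval, as did both values recomputed without the AFOS list. Shares below are followed by that of all regions under the same setting. Windows of 5 kb held 212 skin and 170 culture regions, and 8.64% (19.1%) were lost from W6 to W12. A minimum score of 5 gave 17.3% (12.8%) lost from D0 to W1 and 12.6% (17.8%) closed by AFOS, both on the other side of the background from the main values, and 0 member promoters at least 2-fold higher from noDOX to WT-SOX9. The share opened in all arms was 0 with that minimum (0.122%), with lists of equal length (0.143%) and with 5 kb windows (0.212%). Lists of equal length gave 4.49% (5.94%) gained at W2 and retained, 10.6% (9.77%) lost by W2, 11.4% (18.9%) gained and 13.9% (16.9%) lost from W2 to W6, 12.4% (20.9%) opened by AFOS and 28.2% (23.9%) closed by SOX9+ARID1a, where members and background were equal in the main values. The common q minimum gave 38% (34%) static, 3.87% (3.76%) gained at W2 and retained, 15.1% (14.6%) lost by W2, 5.85% (8.04%) gained and 22.4% (21.1%) lost from D0 to W1, 37.2% (39.9%) lost from W1 to W2, and 22.9% (27.6%) gained and 6.15% (8.07%) lost from W6 to W12. All regions moved in the same direction as the members in each of these q minimum values, and the loss from D0 to W1 turned to above the background. Without W1, 52.7% (43%) were static. Equal lengths and the q minimum remove low-scoring peaks unequally from the lists, and the cause of the other shifts was not tested. Where the highest promoter peaks of both lists overlapped, 0 member promoters were at least 2-fold lower from D0 to W12. The promoter alternatives were added after seeing the data. No paired analysis was possible because each group was deposited as 1 list made from both replicates together, and for the same reason no replicate could be left out.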
